A study of Gallus gallus with 4 samples.

Results

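Limb signalling and identity genes are a set of 7 developmental regulators, found by gene name in a count table of 13081 chick genes: SHH, FGF4, FGF8, GLI3, HAND2, TBX5 and TBX4. Each name matched 1 gene. They were read in 4 RNA sequencing libraries of whole chick (Gallus gallus) embryos, so no value comes from limb alone. Embryos were treated at Hamburger-Hamilton (HH) stage 8, long before limb buds form, and were collected on day 6. The 4 conditions were thalidomide at 40 µg/ml, spermine NONOate at 10 µM, both agents together (called the combination), and the solvent DMSO (control). Thalidomide is a limb teratogen that acts through the ubiquitin ligase adaptor cereblon. Spermine NONOate is a nitric oxide donor, and the series addresses whether nitric oxide alters expression in embryos given thalidomide. Each condition has 1 library, and the labels give neither strain nor sex, nor how many embryos went into a library. In whole embryos, fewer cells of a type and less RNA per cell cannot be told apart.

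In the vertebrate limb bud, cells at the posterior margin (the zone of polarizing activity) secrete the morphogen SHH, and the apical ectodermal ridge secretes FGF4 and FGF8. The ligands sustain each other through the BMP antagonist GREM1, and GLI3, whose processed form represses Hedgehog targets, and HAND2, which activates SHH, oppose each other across the early bud. TBX5 marks the forelimb (wing) and TBX4 the hindlimb (leg). All are also used elsewhere: SHH in notochord, floor plate, ventral forebrain and gut; FGF8 at the midbrain-hindbrain boundary; GLI3 in forebrain; HAND2 in heart and sympathetic neurons; TBX5 in heart, lung and dorsal retina; and TBX4 in lung and hindlimb mesenchyme.

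The libraries held 62576258 to 79359076 reads in genes, and 12859 to 12934 genes had a read. Values are normalised read counts (CPM) after TMM scaling between libraries, with exact Poisson intervals at 95%. As no condition was replicated, no difference between 2 libraries has a test. Calls were made by size alone, for a ratio of 2-fold or more whose exact binomial 95% interval excludes no change, with 20 reads or more in the library where the gene is higher. Intervals cover counting error only. Of the limb tissue markers read in the same table, none was at 0 in any library: PITX1, a hindlimb transcription factor, had 51.6, 56.8, 52.8 and 71.2 CPM in the thalidomide, NONOate, combination and control libraries.

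SHH encodes the secreted Hedgehog ligand. It had 24.2 CPM in the thalidomide library, 14.1 CPM in the NONOate library and 18.9 CPM in the combination library, against 6.75 CPM in control, from 1706, 849, 1467 and 492 reads. All treated libraries were above control, and the order was thalidomide, combination, NONOate, control, with each neighbouring pair differing beyond counting error. SHH was 3.58-fold higher with thalidomide than in control (log2 1.84, 1.70 to 1.99), 2.09-fold higher with NONOate (log2 1.06, 0.90 to 1.23) and 2.80-fold higher with the combination (log2 1.49, 1.34 to 1.64). These ratios share the control library. The combination against NONOate shares no library with thalidomide against control, and in it SHH was 1.34-fold higher (log2 0.42, 0.30 to 0.55), short of the rule. RefSeq (assembly GRCg7b) lists a non-coding RNA that overlaps SHH and another that overlaps FGF4, and the strand setting of the counting is unknown, so reads of such pairs may not be fully separated.

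FGF8 encodes the main ligand of the apical ectodermal ridge. It had 3.26 CPM in the thalidomide library, 2.14 CPM in the NONOate library and 2.82 CPM in the combination library, against 1.10 CPM in control, from 230, 129, 219 and 80 reads. The order of libraries was that of SHH, except that thalidomide and the combination did not differ beyond counting error (log2 0.21, interval -0.07 to 0.48). FGF8 was 2.96-fold higher with thalidomide than in control (log2 1.57, 1.20 to 1.957) and 2.56-fold higher with the combination (log2 1.36, 0.99 to 1.75). With NONOate it lay at the edge of the rule, 1.95-fold higher (log2 0.96, 0.55 to 1.39), and passed it at log2 1.03 with libraries scaled to total counts.

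FGF4, a ridge ligand restricted to the posterior ridge, was barely detected. It had 10 reads (0.142 CPM) in the thalidomide library, 18 (0.299 CPM) in the NONOate library and 18 (0.232 CPM) in the combination library, against 29 (0.398 CPM) in control. The 4 libraries form a series in which no neighbouring pair differed beyond counting error. Its ends did: FGF4 was 2.72-fold lower with thalidomide than in control (log2 -1.44, -2.69 to -0.41). That call rests on few reads and was lost when 100 were required. In the other 4 comparisons every FGF4 interval held 0, so a difference was not detectable at this depth.

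**Figure D1:**
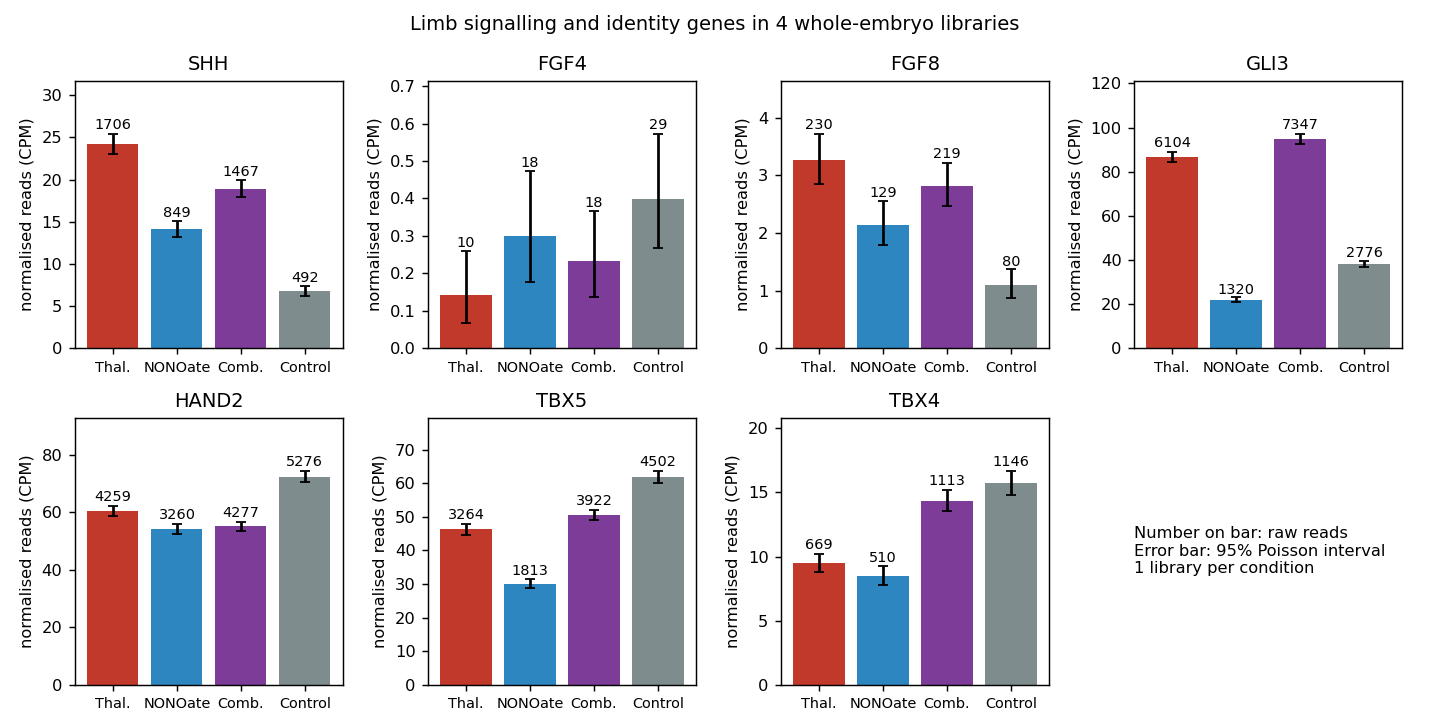
Normalised read counts (CPM, vertical axis of each panel, starting at 0) of the 7 genes in the thalidomide, NONOate, combination and control libraries; bars are single libraries, error bars are 95% Poisson intervals, and numbers are raw reads. SHH and FGF8 are lowest in control, GLI3 is high in both libraries that received thalidomide, and TBX5, TBX4 and HAND2 are highest in control.

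GLI3, a zinc finger transcription factor of Hedgehog signalling, divided the libraries by thalidomide. It had 86.5 CPM in the thalidomide library and 94.7 CPM in the combination library, while the NONOate library had 21.9 CPM and control 38.1 CPM, from 6104, 7347, 1320 and 2776 reads. The libraries with thalidomide were above both libraries without it, and NONOate alone was the lowest. GLI3 was 2.27-fold higher with thalidomide than in control (log2 1.18, 1.12 to 1.25), 2.49-fold higher with the combination than in control (log2 1.31, 1.25 to 1.38) and 4.31-fold higher with the combination than with NONOate (log2 2.11, 2.02 to 2.20). NONOate against control was 1.74-fold lower, short of the rule (log2 -0.80, -0.89 to -0.70). Gene families of short and of long mRNA, chosen after the values were seen, differed between the same libraries. The families also differ in function, and no mRNA lengths were used. In thalidomide against control, 81 of 82 genes of short mRNA families (ribosomal proteins, complex I subunits, proteasome core subunits) lay below 0 (median log2 -0.93), and 19 of 20 genes of long mRNA families (CHD, KMT2 and SETD, DOCK, VPS13) lay above it (median 0.79). In the combination against NONOate the medians were -0.93 and 1.06. GLI3 has a long mRNA, and the part of this family difference in its ratio was not tested. In NONOate against control the short and long families had medians of -0.07 and -0.19.

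HAND2, a basic helix-loop-helix factor, varied least. It had 60.4 CPM in the thalidomide library, 54.2 CPM in the NONOate library and 55.1 CPM in the combination library, against 72.4 CPM in control. All treated libraries were below control, by log2 -0.26 (-0.32 to -0.20), -0.42 (-0.48 to -0.35) and -0.39 (-0.45 to -0.33), and none came near 2-fold. The combination and NONOate libraries did not differ beyond counting error (log2 0.02, -0.04 to 0.09).

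The limb identity genes had their lowest values with NONOate alone. TBX5, the forelimb factor, had 46.3 CPM in the thalidomide library, 30.1 CPM in the NONOate library and 50.5 CPM in the combination library, against 61.7 CPM in control, from 3264, 1813, 3922 and 4502 reads. It was 2.05-fold lower with NONOate than in control (log2 -1.03, -1.11 to -0.96), a call at the edge of the rule that was lost under total counts (log2 -0.97). Thalidomide lay below control by less (log2 -0.42, -0.48 to -0.35), as did the combination (log2 -0.29, -0.35 to -0.23).

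TBX4, the hindlimb factor, had 9.48 CPM in the thalidomide library and 8.48 CPM in the NONOate library, while the combination library had 14.3 CPM and control 15.7 CPM, from 669, 510, 1113 and 1146 reads. Each agent alone lay below control, by log2 -0.73 (-0.87 to -0.59) with thalidomide and -0.89 (-1.04 to -0.74) with NONOate. The combination was near control (log2 -0.13, -0.25 to -0.01; 0.09 under total counts). It stood 1.51-fold above thalidomide (log2 0.60, 0.46 to 0.74) and 1.69-fold above NONOate (log2 0.76, 0.61 to 0.91), neither passing 2-fold. The thalidomide and NONOate libraries did not differ beyond counting error (log2 0.16, -0.01 to 0.33). TBX4 overlaps BRIP1 and a non-coding RNA in GRCg7b, with the same limit on strand. BRIP1 itself was higher with thalidomide than in control (log2 0.56, 0.48 to 0.65), opposite to TBX4.

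By the rule of size, 3 of the 7 genes were called higher with thalidomide than in control (SHH, FGF8, GLI3), where 9.22% of 12138 genes were called higher, and 1 lower (FGF4), where 7.23% were. NONOate against control had 1 higher (SHH; background 4.33% of 12066 genes) and 1 lower (TBX5; background 1.33%). The combination against control had 3 higher (SHH, FGF8, GLI3; background 10.1% of 12176 genes) and 0 lower (background 4.16%). The combination against thalidomide had 0 in either direction (background 3.74% higher and 1.26% lower of 12154 genes), and the combination against NONOate had 1 higher (GLI3; background 9.84% of 12161 genes) and 0 lower (background 6.03%). The medians over the 7 genes were log2 -0.26, -0.42, -0.13, 0.13 and 0.42 in these 5 comparisons, while the medians over all genes lay between -0.05 and 0.01. In the last 2 comparisons FGF4 was under the 20-read minimum. Because the 7 genes were chosen with earlier results of these data known, their counts are no independent test against the shares over all genes. The authors' deposited p-values that follow each set 1 library against 1 library, so they do not measure spread between embryos. They are given as deposited and are not used as tests here. In the authors' deposited table, SHH had an unadjusted p of 0.0165 and GLI3 one of 0.0439 for thalidomide over control, and the other 5 genes had 0.119 or more. Below 0.05 unadjusted lay 3.25% of all genes as higher and 1.72% as lower in that comparison of the authors' deposited table. For NONOate over control the authors' deposited table gave TBX5 an unadjusted p of 0.00268, SHH 0.0320 and GLI3 0.0413, TBX5 and GLI3 being lower, with 3.59% of genes higher and 0.933% lower. For the combination over control the authors' deposited table gave GLI3 0.0196 and SHH 0.0421, both higher, with 3.83% of genes higher and 1.14% lower. In the authors' deposited table GLI3 alone passed for the combination over NONOate (unadjusted p 0.00162), with 3.13% of genes higher and 1.67% lower. For the combination over thalidomide 0 of the 7 passed in the authors' deposited table, where 3.01% of genes were higher and 1.53% lower.

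Because TMM scaling is set by all genes, pairs of the 7 genes were also compared by their reads within each library, which no scaling changes. These pairs were chosen after the values were seen, gene lengths were not used, and only the differences between libraries are read. Overlap of 2 intervals does not show that 2 proportions are equal. FGF8 and SHH kept nearly the same proportion: FGF8 had 13.5 reads per 100 SHH reads with thalidomide (11.7 to 15.5), 15.2 with NONOate (12.5 to 18.3) and 14.9 with the combination (12.9 to 17.2), against 16.3 in control (12.7 to 20.6), and the intervals overlap in all 4 libraries. HAND2 and GLI3 did not: HAND2 had 69.8 reads per 100 GLI3 reads with thalidomide (67.1 to 72.6), 247 with NONOate (232 to 263) and 58.2 with the combination (56.0 to 60.5), against 190.1 in control (181 to 199). The 2 libraries with thalidomide were far below the 2 without it. Short and long mRNA families also differed between these libraries, with medians of log2 -0.93 and 0.79 in thalidomide against control. In the combination against NONOate their medians were -0.93 and 1.06. GLI3 has a long mRNA, and the part of this family difference in its proportions to HAND2 and SHH was not tested.

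SHH had 27.9 reads per 100 GLI3 reads with thalidomide (26.5 to 29.5), 64.3 with NONOate (58.9 to 70.2) and 19.97 with the combination (18.9 to 21.1), against 17.7 in control (16.1 to 19.5). NONOate alone stood apart here, since SHH was above control and GLI3 below it in that library. TBX5 had 488 reads per 100 TBX4 reads with thalidomide (449 to 531), 355 with NONOate (322 to 393) and 352 with the combination (330 to 377), against 393 in control (368 to 420). The TBX5 to TBX4 proportion was thus highest with thalidomide alone. The NONOate and combination intervals overlapped that of control, which does not show that the proportions were equal. Both genes are also used outside the limb, so in whole embryos this is not a proportion of forelimb to hindlimb. FGF4 had 4.35 reads per 100 FGF8 reads with thalidomide (2.06 to 8.14), 13.95 with NONOate (8.02 to 22.9) and 8.22 with the combination (4.78 to 13.3), against 36.2 in control (22.8 to 56.1). The thalidomide and combination intervals lay below that of control. That of NONOate touched it only at the edge (upper bound 22.9, lower bound in control 22.8), so a lower proportion with NONOate is not excluded.

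**Figure D2:**
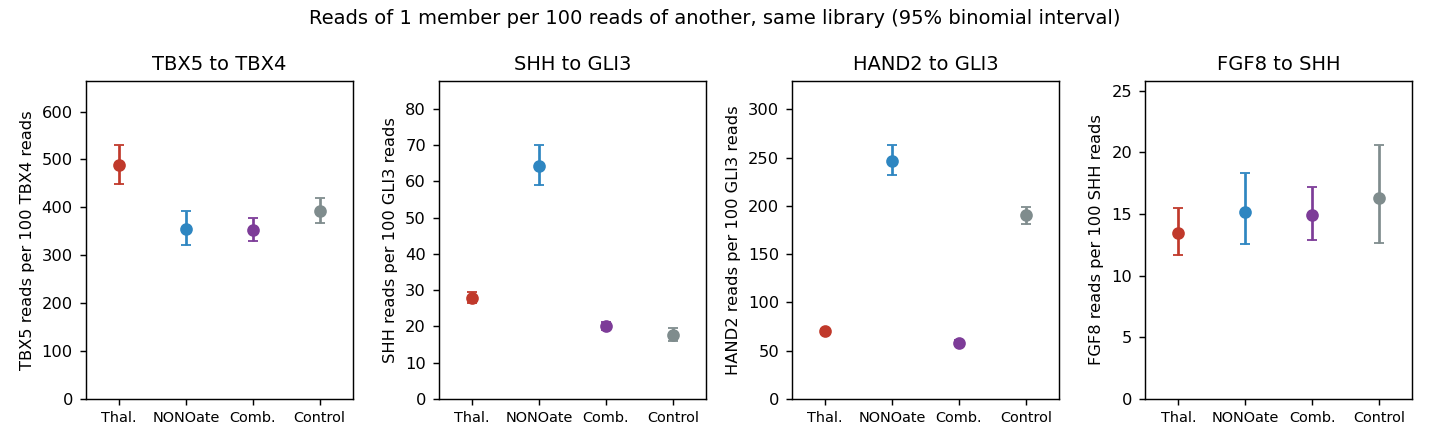
Reads of 1 gene per 100 reads of another in the same library (vertical axes, starting at 0) for TBX5 to TBX4, SHH to GLI3, HAND2 to GLI3 and FGF8 to SHH; points are single libraries and bars 95% binomial intervals. FGF8 to SHH overlaps in all 4 libraries, while HAND2 to GLI3 is 69.8 and 58.2 in the libraries with thalidomide, against 247 and 190.1 in those without.

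The 4 conditions form a 2 by 2 layout, which was fitted across all genes with edgeR's quasi-likelihood test, both agents additive on the log2 scale. This sets 2 libraries with thalidomide against 2 without and leaves 1 residual degree of freedom. Biological replicates do not enter it. The spread is estimated in part from all other genes, so an interaction in a single gene enters its SE and p-value only in part. For SHH the log2 ratio was 1.84 in thalidomide against control but 0.42 in the combination against NONOate. GLI3 was higher in the libraries with thalidomide by log2 1.64 ± 0.22 (SE; Benjamini-Hochberg adjusted p = 6.29e-12, edgeR) and SHH by 1.13 ± 0.28 (adjusted p = 0.000433), both higher in 2 of 2 pairs of libraries. The difference between short and long mRNA families moves with the same libraries, with medians of -0.93 and 0.79 in thalidomide against control and of -0.93 and 1.06 in the combination against NONOate, and its part in these values was not tested. FGF8 missed the threshold at 0.98 ± 0.41 (adjusted p = 0.0521, edgeR), though also higher in both pairs. HAND2 (-0.12 ± 0.21, adjusted p = 0.703), TBX5 (0.16 ± 0.22, adjusted p = 0.610) and TBX4 (0.01 ± 0.30, adjusted p = 0.980) had values near 0 in the edgeR fit. FGF4 was left out by the read minimum. Of 12090 genes, 17.6% were called higher and 14.9% lower for thalidomide, so 2 calls among 6 genes stand beside a common background. For NONOate none of the 6 genes was called, where 2.03% of genes were higher and 0.199% lower; TBX5 had the smallest p (log2 -0.45 ± 0.22, unadjusted p = 0.0434, adjusted p = 0.695, edgeR).

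The values near 0 for TBX5 and TBX4 average opposite differences. With NONOate present (the combination against NONOate), thalidomide went with higher TBX5 (log2 0.75, 0.67 to 0.83) and TBX4 (0.76, 0.61 to 0.91), while without it (thalidomide against control) both were lower (-0.42 and -0.73). The difference between these ratios was log2 1.16 for TBX5 (1.06 to 1.27) and 1.49 for TBX4 (1.28 to 1.69), beyond counting error. SHH and FGF8 went the other way: their ratio was smaller with NONOate present, by log2 -1.42 (-1.61 to -1.23) and -1.17 (-1.65 to -0.69). GLI3 had a larger ratio with NONOate present, by 0.93 (0.82 to 1.03), and HAND2 by 0.29 (0.20 to 0.37). For FGF4 the interval held 0 (1.08, -0.30 to 2.45). With 1 library per condition, these differences were not tested against spread between embryos, and each draws on all 4 libraries.

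**Figure D3:**
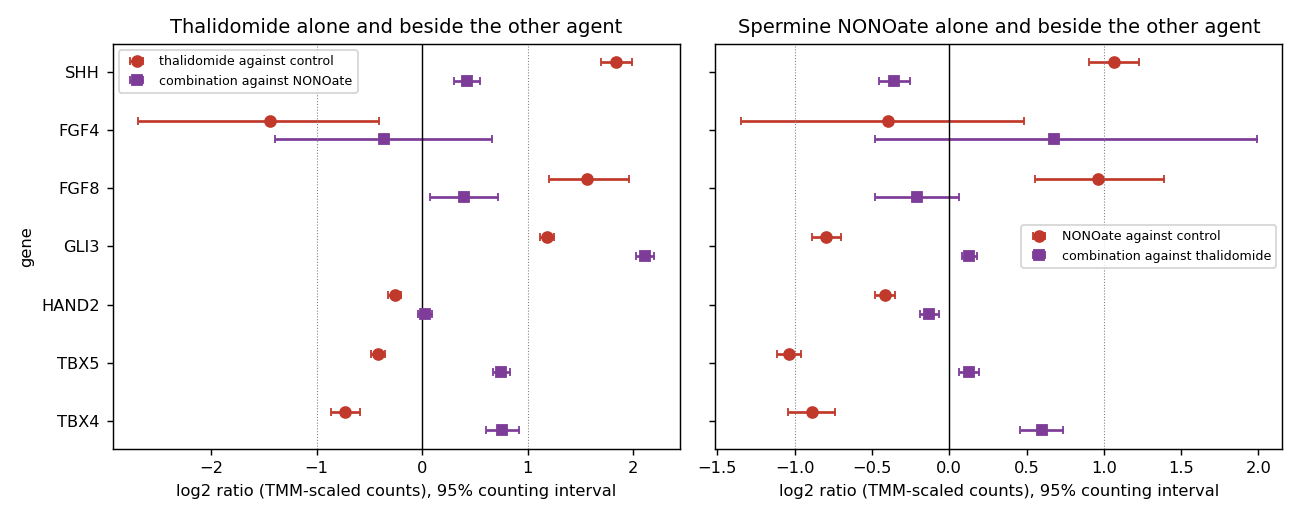
Log2 ratios (horizontal axes) of the 7 genes (rows), for thalidomide alone and beside NONOate in the left panel and for NONOate alone and beside thalidomide in the right panel; bars are 95% counting intervals and dotted lines mark 2-fold. On the left TBX5 and TBX4 lie on opposite sides of 0 in the pair of comparisons, while SHH, FGF8 and GLI3 lie above 0 in both.

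Counts of called genes in the lists that follow stand beside the shares over all genes: with thalidomide against control 9.22% higher and 7.23% lower, with NONOate against control 4.33% and 1.33%, and with the combination against control 10.1% and 4.16%. For the combination against thalidomide the shares were 3.74% and 1.26%, and for the combination against NONOate 9.84% and 6.03%. Over lists of this size a count of 0 or 1 is near these shares and is no result about the list. Of a Hedgehog list of 20 receptors, transducers and factors, 13 were found, and 0 were called in thalidomide against control (median log2 0.26), NONOate against control (-0.27), the combination against control (0.21) or the combination against thalidomide (0.06). HHIP encodes a Hedgehog-binding membrane protein induced by the pathway. It had 18.5 CPM in the thalidomide library, 12.2 CPM in the NONOate library and 19.7 CPM in the combination library, against 12.2 CPM in control, so that it was higher with thalidomide by log2 0.60 (0.48 to 0.73) and short of the rule. BOC, a Hedgehog co-receptor, was the 1 list member called in the combination against NONOate (log2 1.01, 0.97 to 1.05), and it fell short with DESeq2 size factors (0.996). PTCH1 and GLI1, the usual targets of the pathway, were not matched and are not analysed here.

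In the FGF list 22 of 29 genes were found, and with thalidomide against control 1 was higher and 2 lower (median log2 -0.15), beside 9.22% and 7.23% over all genes. FGFR3, a receptor, was higher (log2 1.07, 1.01 to 1.13) and the ligand genes FGF19 (-1.38, -1.55 to -1.20) and FGF20 (-2.49, -3.86 to -1.48, 8 against 49 reads) were lower. SPRY2, a feedback inhibitor induced by FGF signals, had 37.4 CPM in the thalidomide library, 57.5 CPM in the NONOate library and 35.2 CPM in the combination library, against 58.2 CPM in control. SPRY2 was thus lower in both libraries with thalidomide, in which FGF8 was higher than in control, at log2 -0.64 (-0.71 to -0.57) and -0.72 (-0.79 to -0.65), short of the rule. In the combination against control 3 FGF genes were higher, FGFR3 (1.46), FGF14 (1.29, listed as FHF-4) and FGFRL1 (1.01, but 0.997 with DESeq2 size factors), and FGF20 was lower (-2.63). In NONOate against control none of the 22 was called (median -0.19). The combination against thalidomide had 1 called, FGF19 (1.11, 0.93 to 1.29), and the combination against NONOate had FGFR3 higher (1.66) and FGF20 lower (-2.11).

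Against control, genes of the limb bud mesenchyme list were called in both directions with thalidomide and with the combination. The ectoderm and limb HOX lists had 0 or 1 gene called in each comparison against control, too few for the calls to give a direction. The medians of both lists lay below 0 in each of these comparisons, for the ectoderm list at log2 -0.40 with the combination. Of 12 ectoderm and ridge genes found, 1 was called with thalidomide against control and the same one with NONOate against control: TP63, an epithelial transcription factor, lower by log2 -1.06 (-1.17 to -0.95) and -1.05 (-1.16 to -0.94). Neither held under total counts (-0.86 and -0.98), and 7.23% and 1.33% of all genes were called lower in these comparisons. The list medians were -0.35 and -0.30, and the summed level was 200.5 CPM in the thalidomide library, 202 CPM in the NONOate library and 195 CPM in the combination library, against 260.4 CPM in control. Of 29 mesenchyme genes, 3 were higher and 2 lower with thalidomide (median -0.02), beside 9.22% and 7.23% over all genes. SALL4, a zinc finger factor degraded through cereblon in human cells given thalidomide, was higher (1.32, 1.21 to 1.44), as was SALL1 (1.15, 1.10 to 1.20), and TWIST2 (listed as CDERMO-1; -1.24) and MSX1 (listed as GHOX-7; -1.05) were lower. MSX1 was also lower with NONOate (-1.002, -1.07 to -0.94), a call lost under all 4 other scalings (-0.997 to -0.94), and under total counts it was short of the rule with thalidomide as well (-0.85). GREM1, the BMP antagonist that links SHH to the ridge, had 4.79 CPM in the thalidomide library, 5.12 CPM in the NONOate library and 4.61 CPM in the combination library, against 7.06 CPM in control, below control in every treated library and never 2-fold.

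Of 8 limb HOX genes found, 1 was called lower with thalidomide, HOXD12 (log2 -1.24, -1.35 to -1.13), where 7.23% of all genes were, and 1 with NONOate, HOXA13 (-1.94, -2.43 to -1.51), where 1.33% were. In the combination against NONOate 1 was called higher, HOXA13 (1.38, 0.93 to 1.88), where 9.84% of all genes were. The HOX list medians were -0.37 with thalidomide, -0.42 with NONOate and -0.39 with the combination, all against the same control library. Summed levels were 88.6, 86.4 and 86.9 CPM in the thalidomide, NONOate and combination libraries, against 111 CPM in control. Without HOXD8, the most abundant gene of the list, the sums were 66.6, 60.7 and 67.0 CPM, against 91.2 CPM in control. HOXA13, which marks the future hand and foot and the hindgut, had 1.62 CPM in the thalidomide library, 0.831 CPM in the NONOate library and 2.18 CPM in the combination library, against 3.22 CPM in control, from 114, 50, 169 and 235 reads. HOXD13 had 6.42, 6.27 and 7.23 CPM in those treated libraries, against 9.86 CPM in control. PITX1, which acts upstream of TBX4 in the hindlimb, was not called in any comparison (log2 -0.47 with thalidomide, -0.33 with NONOate and -0.43 with the combination, each against control).

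Markers of the other sites that use these genes were read beside them. For SHH, 9 of 18 floor plate, notochord and ventral neural tube genes were found, none at 0; their summed level was 297 CPM in the thalidomide library, 201 CPM in the NONOate library and 292 CPM in the combination library, against 159.9 CPM in control. SPON1, which encodes the floor plate protein F-spondin, made up most of that sum, with 228, 148 and 223 CPM in the treated libraries in that order, against 113 CPM in control. Without SPON1 the sum was 69.2, 52.5 and 69.0 CPM, against 47.2 CPM in control. Of the 9, 3 were called higher with thalidomide (median log2 0.61), beside 9.22% of all genes, 2 with NONOate (0.18), beside 4.33%, and 2 with the combination (0.69), beside 10.1%. None was called lower, where 7.23%, 1.33% and 4.16% of all genes were, and the SPON1 call with thalidomide (1.02) was lost under upper quartile scaling (0.98). NKX2-1, a factor of ventral forebrain, lung and thyroid, had 2.51 CPM in the thalidomide library, 2.21 CPM in the NONOate library and 2.51 CPM in the combination library, against 0.247 CPM (18 reads) in control, higher by log2 3.31 (2.64 to 4.13), 3.13 (2.45 to 3.96) and 3.31 (2.65 to 4.13). OLIG3, a neural tube factor, was higher by 2.27, 1.07 and 2.13. The endoderm list, with 11 of 17 genes found, none at 0, had summed levels of 64.2, 46.2 and 72.3 CPM in the thalidomide, NONOate and combination libraries, against 43.9 CPM in control. Of 7 endoderm genes with 20 reads, 4 were higher and 1 lower with thalidomide, and 3 were higher and 1 lower with NONOate and with the combination, beside the same shares over all genes. CDX2, a hindgut factor, had 2 reads in the NONOate library. The part of these sites in the SHH difference was not tested.

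For FGF8, 9 of 15 genes of the midbrain-hindbrain boundary and forebrain were found, none at 0, with summed levels of 109, 112 and 125 CPM in the thalidomide, NONOate and combination libraries, against 123 CPM in control. Without EMX2, the most abundant gene of the list, the sum was 76.5, 68.9 and 90.9 CPM, against 74.6 CPM in control. Of the 9 genes, 2 were called higher in every treated library, beside 9.22%, 4.33% and 10.1% of all genes. The list medians were log2 -0.10 with thalidomide, -0.18 with NONOate and 0.17 with the combination, each against control, so these 2 genes do not stand for the list. PAX2, also a kidney gene, had 10.0, 6.41 and 11.9 CPM, against 2.43 CPM in control (log2 2.04, 1.40 and 2.29), and GBX2 had 6.42, 8.59 and 7.87 CPM, against 2.11 CPM in control (1.60, 2.02 and 1.89). The PAX2 and GBX2 ratios all share the control library, with 177 and 154 reads of these genes there. OTX2, a forebrain and eye gene, was lower with thalidomide (-1.37, -1.54 to -1.20). The part of these genes' sites in the FGF8 difference was not tested.

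For HAND2 and TBX5, 16 of 26 heart muscle genes were found, none at 0; their summed level was 1179 CPM in the thalidomide library, 1517 CPM in the NONOate library and 1103 CPM in the combination library, against 1864 CPM in control. The cardiac actin gene ACTC1 carried most of the difference with thalidomide, with 369, 739.5 and 522 CPM in the treated libraries in that order, against 1012 CPM in control. Without ACTC1 the sum was 810.3, 777 and 580.3 CPM, against 852 CPM in control. With thalidomide 4 heart genes were higher and 2 lower (median log2 -0.14), beside 9.22% and 7.23% over all genes. The higher ones were the transcription factors GATA4 (2.06) and TBX20 (1.07), the myosin gene MYH15 (1.06) and the calcium channel gene RYR2 (1.07), and the lower ones ACTC1 (-1.46) and the troponin gene TNNC1 (-1.16, but -0.96 under total counts). TBX20 and RYR2 were named after their values were seen. With NONOate 1 was lower, MYOCD (-1.56, -1.79 to -1.34). In the retina list, 12 of 18 genes found, none at 0, the sum was 284, 648 and 407 CPM in the thalidomide, NONOate and combination libraries, against 735 CPM in control, and 5 genes were lower and 1 higher with thalidomide, beside 7.23% and 9.22% over all genes. ALDH1A3 (listed as ALDH6), an enzyme of retinoic acid synthesis, carried most of the difference with thalidomide, with 86.1, 369.8 and 150.1 CPM, against 447 CPM in control. Without it the retina sum was 198, 279 and 257 CPM, against 288 CPM in control. In the sympathetic list, 12 of 17 genes found, none at 0, the sum was 315, 401 and 349 CPM, against 306 CPM in control. Without CHGB, its most abundant gene, the sum was 203, 223 and 217 CPM, against 194 CPM in control. With thalidomide 2 sympathetic genes were higher and 3 lower, beside 9.22% and 7.23% over all genes. TH (1.29) and DDC (1.52), enzymes of catecholamine synthesis, were the higher ones, and NPY (-1.61) and SLC18A2 (-1.13) were among the lower ones. The lateral plate list (6 of 11 found, none at 0) had sums of 191, 197 and 203 CPM, against 244 CPM in control, and the list of limb connective tissue, cartilage and muscle (13 of 18 found, none at 0) 651, 693 and 859 CPM, against 779.7 CPM in control. In the last list 2 genes were higher and 3 lower with thalidomide, beside 9.22% and 7.23% over all genes. With the combination 2 were higher and 2 lower, beside 10.1% and 4.16%. TNMD, a tendon gene, was lower with thalidomide (-3.44, -3.57 to -3.32) and with the combination (-2.30, -2.38 to -2.21). ACAN, the cartilage proteoglycan, was higher in both (1.13 and 1.58), as was SOX6 (1.41 and 1.61). MYOD1 was also lower with thalidomide (-1.50) and MATN3 with the combination (-1.16). With NONOate 1 gene was lower, PAX7 (-1.10), beside 1.33% of all genes. The part of these tissues in the HAND2, TBX5 and TBX4 differences was not tested.

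**Figure D4:**
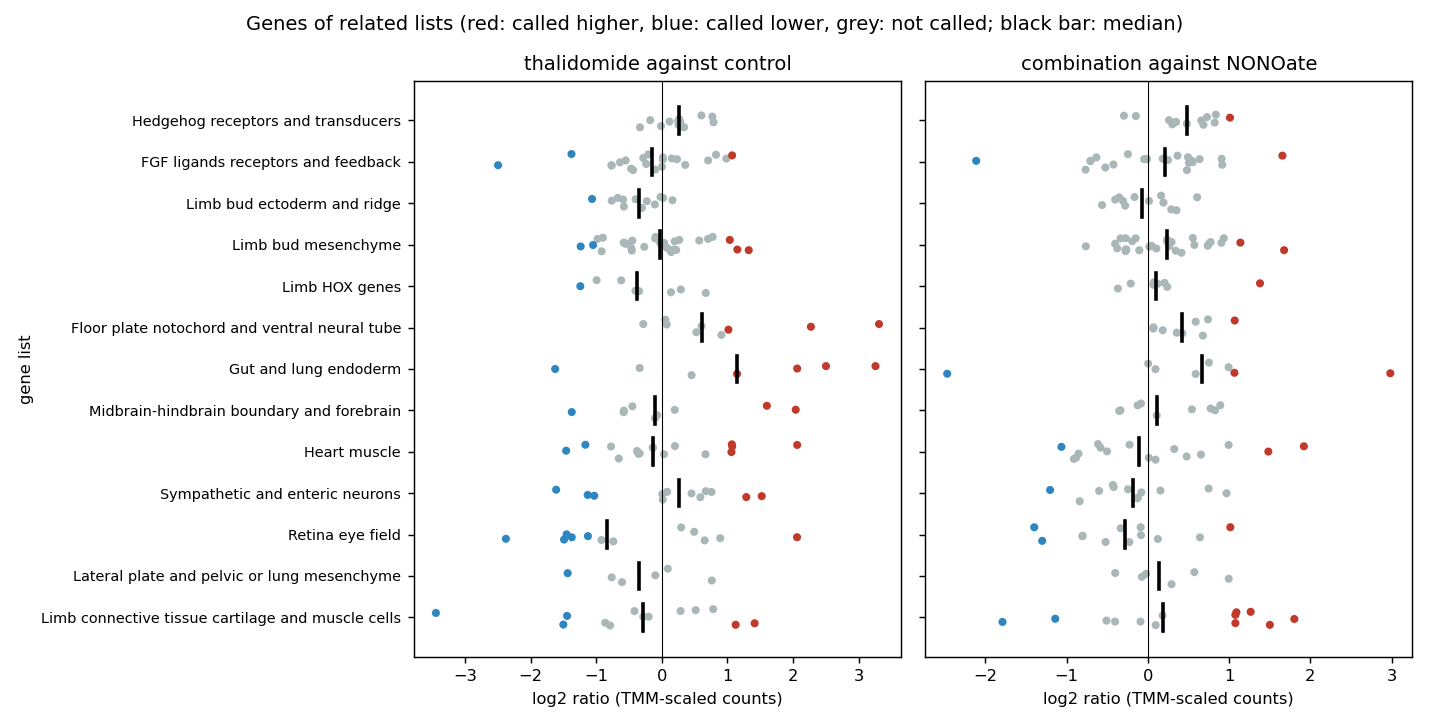
Log2 ratios (horizontal axes) of the genes of 13 related lists (rows), for thalidomide against control on the left and the combination against NONOate on the right; each point is a gene with 20 reads in either library, red if called higher, blue if called lower and grey otherwise, and black bars are medians. The floor plate list has 3 genes called higher on the left and none lower, while the limb HOX and ectoderm lists have medians below 0 there.

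Neighbouring genes in the order of the RefSeq annotation (GRCg7b, names alone) were read beside each of the 7. Next to SHH, RBM33 was higher with thalidomide (log2 1.48, 1.41 to 1.54) and with the combination (1.18, 1.12 to 1.24) and had a ratio of -0.04 with NONOate (-0.12 to 0.04), each against control, whereas SHH was higher with NONOate too. LMBR1, the gene that carries the limb enhancer of SHH in an intron, had ratios of 0.97, 0.02 and 0.69. FGF4 lies between FGF3 and FGF19; FGF3 had a ratio of -0.28 with thalidomide (-0.62 to 0.05), against -1.38 for FGF19. TBX3, next to TBX5, had ratios of 0.09 with thalidomide, -0.27 with NONOate and 0.02 with the combination, each against control, and so lay nearer to control than TBX5 in all 3. TBX2, which lies close to TBX4, had ratios of -0.10, -0.58 and -0.01 in the same order, also lowest with NONOate alone. The nearest genes to FGF8, NPM3 and POLL, were not called in any comparison, nor were SCRG1 and FBXO8 beside HAND2. INHBA, the nearest neighbour of GLI3 found in the table, was lower with thalidomide (-1.25, -1.42 to -1.08), opposite to GLI3.

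Across the 4 libraries, the genes with the most similar profiles were found by Euclidean distance between log2 CPM values centred on each gene's mean, over 10164 named genes with at least 100 reads in total. For SHH these were LASP-2 (distance 0.16), with 27.1, 14.9 and 21.7 CPM in the thalidomide, NONOate and combination libraries, against 8.33 CPM in control, and VWA3B (0.16). For FGF8 they were RBM44 (0.16) and OGDHL (0.17), for FGF4 NGB (0.11) and the muscle factor MYOD1 (0.12), and for HAND2 POFUT1 (0.04) and QARS (0.05). FREM2 (0.13) was nearest to GLI3, with 83.3, 23.8 and 94.5 CPM in the thalidomide, NONOate and combination libraries, against 37.6 CPM in control, followed by PRDM16 (0.14). TLR15 (0.16) and EMP1 (0.16) were nearest to TBX5, and CHRNA1 (0.19) and LMF2 (0.19) to TBX4. A likeness over 4 libraries is a description and nothing more.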

How the data were processed

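Total RNA of whole embryos was extracted with Trizol and sequenced on an Illumina instrument, per the labels' protocols. Tools named in the submitters' processing notes are TopHat2 (2.0.8), with galGal4 as build and DESeq among the tools. Per the file headers, genes come from Ensembl 75. No source used here names the counting tool or its strand setting. In the deposited table the authors give unscaled read counts for each gene, together with the authors' fold (ratio), log2 fold and unadjusted p-value for 5 pairs of libraries, copied here only where named. Where several genes had 1 symbol, that with the highest total was used. NCBI RefSeq (GRCg7b) served for older symbols, gene order and overlap.

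Counts were scaled with TMM (edgeR 4.0.16, R 4.3.3). Ratios had 0.5 reads added to each count, with exact Clopper-Pearson intervals at 95%. The 2 by 2 fit used genes with at least 20 reads in at least 2 libraries, its SE being the size of the log2 fold over the square root of F. Adjusted p under 0.05 was a call. Both procedures were run on simulated counts. In those for the 2 by 2 fit the agents did not interact, so that run does not cover genes whose ratios differed with the other agent, such as SHH and TBX4. Alternatives were 4 other scalings, DESeq2 1.42.0 in place of edgeR, other fold and read minimums, and 5 reads added. Of the 240 distinct genes in 13 lists, 163 were found, 10 of them by an older symbol. Genes were named by rule: all 7 members, their 2 nearest profiles, up to 4 called genes per list and comparison, and a set of partners. Members and lists were chosen with earlier results of these data known; the mRNA size families and within-library pairs, the list sums without their most abundant gene and the rescaling of named list genes were added after the values were seen. No sequence was used here.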

Additional observations from a re-analysis of the deposited data

Results flagged for a closer look

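In SHH, GLI3, TBX5 and TBX4 a difference went one way without the other agent and the opposite way beside it, each ratio beyond counting error. The share of all genes with such a turn was not counted, so it is no trait of these genes. With 1 library per condition, none of these contrasts between differences was tested against spread between embryos, and the paired ratios draw on the same 4 libraries.

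For thalidomide, TBX5 had a log2 ratio of 0.75 beside NONOate (combination against NONOate) and -0.42 alone (thalidomide against control), and TBX4 had 0.76 beside NONOate and -0.73 alone. The -0.42 of TBX5 lay within the quartiles of all genes in thalidomide against control (-0.45 to 0.47).

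For NONOate, SHH had a log2 ratio of -0.35 beside thalidomide (combination against thalidomide) and 1.06 alone (NONOate against control), and GLI3 had 0.13 beside thalidomide and -0.80 alone. TBX5 had 0.13 beside thalidomide and -1.03 alone, and TBX4 had 0.60 beside thalidomide and -0.89 alone. The 0.13 of GLI3 and that of TBX5 lay within the quartiles of all genes in the combination against thalidomide (-0.22 to 0.26). GLI3 and TBX5 were lower in the NONOate library than in every other, beyond counting error.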

How the results depend on the processing

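Of 315 values (35 ratios of the 7 genes under 9 alternatives) 293 kept their call, 12 lost one and 10 gained one. Directions turned in 2, both uncalled: TBX4 in the combination against control under total counts (0.09) and HAND2 in the combination against NONOate under upper quartile scaling (-0.00). Scaling moved calls of the 7 genes only in NONOate against control: under total counts, upper quartile, and TMM without the 50 most abundant genes, 2 were higher and 0 lower, FGF8 passing at log2 1.03, 1.01 and 1.00 and TBX5 missing at -0.97, -0.989 and -0.995. At 1.5-fold, thalidomide against control had 2 lower, NONOate against control 2 higher and 3 lower, the combination against thalidomide 1 higher, and the combination against NONOate 3 higher. At 3-fold, thalidomide against control had 1 higher (SHH) and 0 lower, NONOate against control 0 and 0, and the combination against control 0 higher. With a minimum of 100 reads, thalidomide against control had 0 lower, as FGF4 fell out.

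Over all genes, total counts moved the median log2 ratio by 0.20 in thalidomide against control, 0.22 in the combination against control and 0.16 in the combination against NONOate. Among called genes 74.9%, 87.7% and 77.7% were then higher, against 56.0%, 70.8% and 62.0% with TMM, and lower calls numbered 560, 255 and 468, against 878, 506 and 733. In thalidomide against control calls numbered 2461 higher and 2289 lower at 1.5-fold and 379 and 255 at 3-fold, against 1119 and 878. In NONOate against control they numbered 1064 and 511, and 289 and 50, against 523 and 161; with a minimum of 100 reads 345 and 90. In the combination against control they numbered 2527 and 1898, and 447 and 118, against 1227 and 506. In the combination against thalidomide they numbered 1137 and 530, and 163 and 52, against 454 and 153, with 58 lower at 100 reads. In the combination against NONOate they numbered 2565 and 2177, and 371 and 163, against 1197 and 733.

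In the additive fit SHH and GLI3 stayed called for thalidomide under DESeq2 size factors, the DESeq2 Wald test and both other read filters, and FGF8 passed only with 100 reads in 2 libraries (adjusted p = 0.0393, edgeR). For NONOate, lower calls over all genes numbered 15 with DESeq2's Wald test, against 24. The planned correction for coding length was not run, because no table of coding lengths was used here. Leaving out a library removes a condition. No paired analysis was possible because each condition has 1 library. Of 104 called values of named list genes, 87 stayed past 2-fold under the 4 other scalings and 17 fell short under at least 1, chosen for this after the data were seen. FGF4, at 10 to 29 reads, is limited by depth.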
